A study of Mus musculus with 8 samples.

Results

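Axon guidance ligands and receptors were followed across the cell types of the adult mouse liver. The members are the 65 genes whose symbols belong to the semaphorin classes 3 to 7, plexin, ephrin, Eph receptor, Slit, Robo, netrin or Unc5 families, out of 46517 genes in the deposited table. They comprise 20 semaphorins, 9 plexins, 8 ephrins, 14 Eph receptors, 3 Slits, 4 Robo receptors, 3 netrins and 4 Unc5 receptors. The rule reads symbols only, though the families were picked with earlier results of these data known. Counts in the whole table summed to fewer than 100 for 5 of these genes.

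These proteins were first known for steering growing axons, and the same ligands and receptors act in vessels and other tissues. Semaphorins bind plexins, and the secreted class 3 semaphorins mostly do so together with the co-receptors neuropilin 1 and 2 (Nrp1, Nrp2). Ephrins are anchored in the membrane and bind Eph receptor tyrosine kinases on a neighbouring cell, and the pair formed by Efnb2 and Ephb4 is known for marking arteries and veins. Secreted Slits bind receptors of the Robo family and were paired here with Robo1 and Robo2 only. Robo4, a member of the family known from endothelium, was not paired with a Slit. Netrins bind Unc5 receptors as well as Dcc and neogenin (Neo1). In the liver lobule, blood enters by the portal vein, passes along sinusoids lined by a fenestrated endothelium and wrapped by hepatic stellate cells, and leaves by the central vein.

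The study sequenced single sorted cells from livers of healthy adult male and female mice by Smart-seq2, a full-length method without molecular identifiers. The mice were C57BL6/J or carried the fluorescent reporters Pdgfrb-GFP, Pdgfra-H2bGFP, Acta2-GFP, Cspg4-dsRED or Cldn5-GFP, alone or combined and each heterozygous. The labels do not say which strain a cell came from, and no sample is labelled as treated. The 8 samples are pools of cells, 1 male and 1 female, in each of 4 classes. They held 998 male and 339 female mesenchymal cells, 655 and 451 endothelial cells, 255 and 396 immune cells, and 358 and 39 epithelial cells. Mesenchymal cells were mostly taken by reporters that read the promoter of Pdgfrb, Pdgfra or Acta2, endothelial cells by antibodies to CD31 or VE-cadherin, Kupffer cells by CD68 and cholangiocytes by EPCAM, while hepatocytes were taken unselected. The number of cells of a type therefore reflects the sort.

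The 3491 cells carried between 47063 and 1128421 gene counts each, with a median of 228708. They lay on 22 plates, none of which held both sexes, and the labels do not name the mouse, so sex, mouse and plate cannot be told apart and p-values measure only the spread between these pools. The endothelial markers Pecam1, Cdh5, Tie1, Kdr and Ptprb summed to 7932 and 7882 CPM (counts per 1000000 counts of the pool) in the male and female endothelial pools, and the markers of the other 3 classes were likewise highest in their own pools. The cluster p2, annotated as cholangiocytes, supplied 61.06% of the male and 97.53% of the female epithelial counts, and only 2 of 203 hepatocytes were female. A group of 26 immune cells (i9c, "Cont" in the deposited annotation) carried endothelial markers at 3084.5 CPM, mesenchymal markers at 1594 and hepatocyte markers at 1488, so the immune values of Robo4, Ephb4, Plxnc1 and Slit3 are also given without it. In what follows, a level is CPM of a pool's summed counts, and a gene is called where edgeR's quasi-likelihood test gave an adjusted p below 0.05 over all genes together with a change of at least 2-fold.

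Axon guidance genes differed in level between the 4 classes. Of the 62 members with enough counts to be tested, 16 were called higher in endothelial cells than in the mean of the other 3 classes, 18 in mesenchymal cells, 10 in epithelial cells and 2 in immune cells. Over all 24046 genes tested, 5.33% were called higher in endothelial, 9.47% in mesenchymal, 8.37% in epithelial and 7.92% in immune cells. Lower calls fell on 5 members in endothelial cells, none in mesenchymal, 11 in epithelial and 14 in immune cells, against 2.96%, 2.33%, 4.05% and 5.25% of all genes; in both directions together, endothelial calls were 21 members and 8.28% of all genes. The median log2 fold change of the members was -0.16 in endothelial cells (0.04 over all genes), 1.24 in mesenchymal cells (0.02), -0.70 in epithelial cells (-0.27) and -1.40 in immune cells (0.09). When each of the 8 pools was left out in turn, 10 of the 21 endothelial calls held in all 8 fits, 13 of 18 mesenchymal, 8 of 21 epithelial and 6 of 16 immune calls. With sex as a block, 19, 17, 19 and 15 of these calls were kept. The calls lost were Ephb3 and Sema6c in endothelial, Slit2 in mesenchymal, Ephb2 and Sema6b in epithelial and Sema4f in immune cells. A gene called in this way need not have its highest level there: Epha4, Robo1 and Sema3d were called higher in both endothelial and mesenchymal cells. The 3 members that could not be tested, Epha6, Epha8 and Ntn5, reached at most 0.243 CPM in any pool.

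**Figure D1:**
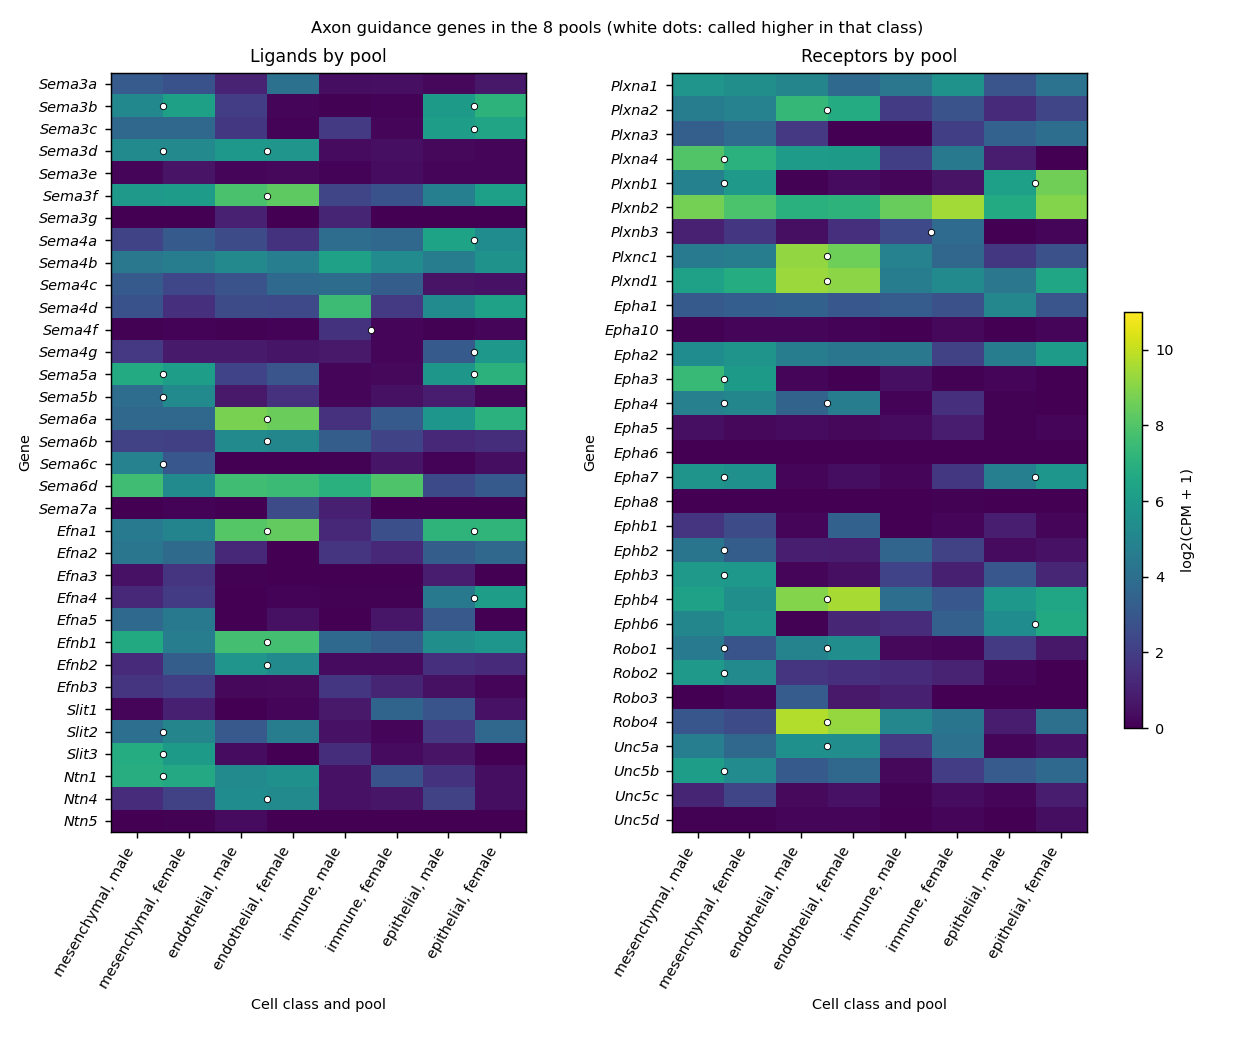
Heat map of log2(CPM + 1) of the 65 axon guidance genes in the 8 pools, ligands at the left and receptors at the right, with white dots where edgeR's quasi-likelihood test called the gene higher in that class. Bright rows such as Robo4, Ephb4, Plxnd1 and Plxnc1 are endothelial, while Plxnb2 is bright in all 8 pools.

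Robo4 had the largest endothelial excess. This Robo receptor (ENSMUSG00000032125, GRCm38 chr9:37401897-37415115, plus strand) measured 860.0 and 609 CPM in the male and female endothelial pools, 32.7 and 18.4 in immune cells, 6.58 and 4.96 in mesenchymal cells and 0.858 and 15.6 in epithelial cells. Both endothelial pools lay far above the other 6. The log2 fold change was 6.06 ± 0.76 (SE; edgeR's quasi-likelihood test, adjusted p = 0.00355). Without i9c the immune values were 17.7 and 4.74 CPM. After each cell was thinned to 50000 counts, Robo4 was detected in 78.5% of endothelial cells, 17.4% of immune, 7.59% of epithelial and 3.07% of mesenchymal cells, and without thinning in 90.4%, 38.7%, 17.6% and 8.23%. The endothelial markers summed to 370 and 553 CPM in the immune pools and to 46.3 and 156 in the epithelial pools, and their part in the Robo4 values there was not tested. These markers include Cdh5, which the paper reports that Kupffer cells themselves express, at levels like those of liver endothelium. The highest single marker stood at 160 and 327 CPM in the male and female immune pools. Robo3, whose gene lies tail to tail with Robo4 on the opposite strand, reached 8.20 CPM at most, and these reads carry no strand.

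Ephb4, the receptor of ephrin B2 on veins (ENSMUSG00000029710, chr5:137350109-137378669, plus strand), measured 494 and 752 CPM in the endothelial pools, 77.7 and 43.2 in mesenchymal cells, 56.9 and 89.1 in epithelial cells and 14.5 and 6.90 in immune cells (10.9 and 0.845 without i9c). The endothelial pools did not overlap the rest, with a log2 fold change of 4.03 ± 0.40 (edgeR's quasi-likelihood test, adjusted p = 0.00185). Its ligand Efnb2 was present at a lower level, 51.6 and 36.5 CPM in endothelial cells against at most 8.36 in any other pool (log2 fold change 5.05, adjusted p = 0.00396). The related ligand Efnb1 (ENSMUSG00000031217, chrX:99136130-99148991, plus strand) measured 208 and 206 CPM in endothelial cells, but also 101 in the male mesenchymal pool and 23.5 in the female (log2 fold change 2.61, adjusted p = 0.0188). Efna1, a GPI-anchored ephrin for EphA receptors, stood at 277 and 328 CPM in endothelial and at 143 and 146 in epithelial cells, and at most 29.8 elsewhere; it was called higher in both classes (log2 fold changes 3.62 and 2.20, adjusted p = 0.00326 and 0.0159).

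The plexins divided between classes. Plxnd1, a receptor for class 3 semaphorins known from vessels (ENSMUSG00000030123, chr6:115954811-115995005, minus strand), measured 646 and 535 CPM in endothelial cells and at most 112 in the other 6 pools (log2 fold change 3.38, adjusted p = 0.00488). Plxnc1, the receptor of Sema7a (ENSMUSG00000074785, chr10:94790866-94944835, minus strand), measured 591 and 377 CPM in endothelial cells, 28.3 and 11.5 in immune cells (18 and 5.09 without i9c), 21.4 and 23.6 in mesenchymal cells and 2.49 and 5.63 in epithelial cells. Endothelial levels of Plxnc1 exceeded all others without overlap (log2 fold change 5.25 ± 0.43, edgeR's quasi-likelihood test, adjusted p = 0.000791). Plxna2, a partner of class 3 and class 6 semaphorins, was the third plexin of this class at 159.7 and 109 CPM against at most 28.1 elsewhere (log2 fold change 4.25, adjusted p = 0.00206).

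Plxnb1, a receptor of Sema4d, ran the other way. It measured 72.8 and 396 CPM in the epithelial pools and 27.4 and 58.4 in mesenchymal cells, but 0.0577 and 0.235 CPM in endothelial and 0.118 and 0.511 in immune cells. The log2 fold change was 7.42 in epithelial and 4.30 in mesenchymal cells, -6.72 in endothelial and -5.00 in immune cells, all called (edgeR's quasi-likelihood test, adjusted p = 0.000987, 0.00683, 0.0135 and 0.0195). Plxnb2, another plexin that binds class 4 semaphorins, was the most widely detected member (66.743% of all cells). Its levels were 345 and 711 CPM in immune cells, 416 and 232 in mesenchymal, 105 and 498 in epithelial and 127 and 137 in endothelial cells. The pools of these classes overlapped and Plxnb2 was called in none. Plxna4, a neuropilin-dependent plexin, was highest in mesenchymal cells at 256 and 131 CPM, against 65.4 and 63.0 in endothelial cells and at most 21.1 elsewhere (log2 fold change 4.76, adjusted p = 0.00596).

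Among the semaphorins, 4 members were higher in endothelial cells. Transmembrane Sema6a measured 436 and 361 CPM in the endothelial pools and at most 129.7 in the other 6 (log2 fold change 4.44, edgeR's quasi-likelihood test, adjusted p = 0.00231). Secreted Sema3f measured 229 and 308 CPM, with 59.5 and 64.3 in mesenchymal cells and 72.0 as the highest other value (log2 fold change 3.39, adjusted p = 0.00260). Sema6b stood at 37.6 and 31.8 CPM against at most 8.45 elsewhere (log2 fold change 3.38). Sema3d measured 57.4 and 53.1 CPM in endothelial and 37.2 and 35.1 in mesenchymal cells, but at most 0.366 in immune and epithelial pools. The remaining endothelial calls were Ntn4, a laminin-related netrin (40.0 and 36.5 CPM, at most 3.45 elsewhere), the netrin receptor Unc5a (44.7 and 41.5 CPM, at most 24.8 elsewhere), Robo1 (29.1 and 41.0 CPM, at most 21.6 elsewhere) and Epha4 (10.4 and 23.5 CPM, with 26.6 and 32.3 in mesenchymal cells). At 50000 counts per cell, however, Unc5a was detected in 14.5% of endothelial and 32.1% of immune cells (21.3% and 53.3% without thinning). Unc5a had log2 fold changes of 3.57 in endothelial and -6.58 in epithelial cells, and Ntn4 of 4.70 in endothelial cells.

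**Figure D2:**
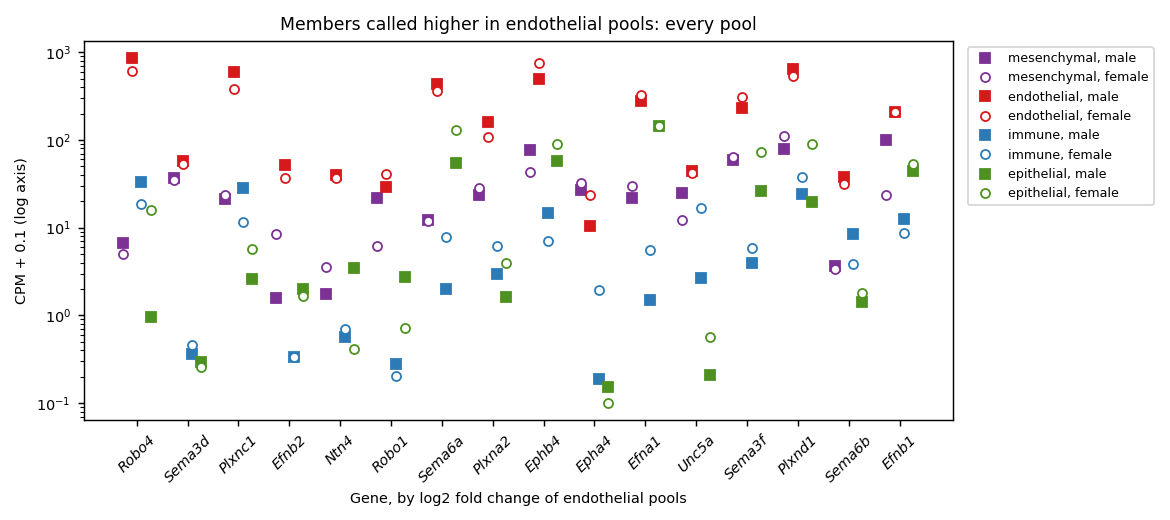
CPM + 0.1 on a log axis, in each of the 8 pools, of the 16 axon guidance genes called higher in endothelial cells, ordered by log2 fold change. Squares are male and circles female pools; for Robo4, Plxnc1, Ephb4 and Plxnd1 both endothelial points lie clear of the other 6, while for Epha4 the mesenchymal points lie above them.

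Levels of different genes were set beside each other per kb of exon. On this scale endothelial cells carried Efna1 at 162.1, Robo4 at 143.8, Ephb4 at 128.2, Plxnd1 at 82.61, Plxnc1 at 60.78 and Sema3f at 49.96 CPM per kb, with Unc5a at 10.43 and Ntn4 at 10.33 the highest of their subfamilies and Efnb1, at 60.06, also above Sema3f. Sema6a was close to Sema3f at 46.3, and in the male endothelial pool alone Sema6a was higher (49.6 against 44.1). In mesenchymal cells the highest member of each subfamily was Plxnb2 at 45.75, Efnb1 at 21.5, Ntn1 at 17.4, Epha3 at 15.78, Slit3 at 15.72, Sema6d at 13.53, Unc5b at 9.574 and Robo2 at 3.065 CPM per kb. These ranks are of both pools summed. In the female mesenchymal pool alone, Efnb1 at 6.798, Epha3 at 7.233 and Sema6d at 3.395 CPM per kb lay below Efna1, Ephb4 and Sema3f. Immune cells had Plxnb2 at 74.72 and Sema6d at 19.53 CPM per kb, and epithelial cells had Efna1 at 78.25, Plxnb2 at 16.88, Sema4a at 14.79 and Ephb4 at 12.71 CPM per kb. The highest members of the remaining subfamilies were low: Slit2 at 0.5492 CPM per kb in endothelial cells, Robo4 at 4.464, Efnb1 at 2.905, Unc5a at 2.786, Ephb4 at 2.09, Slit1 at 1.182 and Ntn1 at 0.6123 in immune cells, and Unc5b at 1.317, Slit1 at 0.9826, Ntn4 at 0.8468 and Robo4 at 0.3428 in epithelial cells. Slit1, a secreted Robo ligand, measured 0.706 and 10.6 CPM in immune cells and 6.19 and 0.469 in epithelial cells, where 570 of its 573 counts lay in 2 male cells.

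Upstream sequence was looked at because 16 members were higher in 1 class. RefSeq start sites on GRCm38.p6 were found for 14 of those 16 genes, at 16 promoters. The letters AGGAAG, a core of sites for ETS factors, were present on either strand within 250 bases upstream in 7 of the 16 promoters (43.75%), in 17 of 54 promoters of the other members tested (31.48%) and in 9686 of all 32851 promoters (29.48%). The letters AGATAA of GATA sites were in none of the 16 (9.988% of all promoters), and ACAATG of SOX sites in 2 (12.5% against 10.69%). These are letter matches, not sites. The 150 bases before the start of 3 members called higher in endothelial cells are shown, 5′ to 3′ on the strand of the gene, at chrX:99135911-99136060 for Efnb1 (plus strand), chr5:137349959-137350108 for Ephb4 (plus) and chr6:115995006-115995155 for Plxnd1 (minus). Capitals mark the ETS letters, which the stretch of Efnb1 holds and the other two do not, although those of Plxnd1 occur farther upstream among the bases searched.
Efnb1: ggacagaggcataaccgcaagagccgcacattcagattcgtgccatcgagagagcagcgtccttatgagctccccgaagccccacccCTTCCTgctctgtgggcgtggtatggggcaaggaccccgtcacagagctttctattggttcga
Ephb4: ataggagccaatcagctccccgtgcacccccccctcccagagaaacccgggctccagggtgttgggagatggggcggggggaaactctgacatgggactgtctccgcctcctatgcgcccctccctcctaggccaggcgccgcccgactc
Plxnd1: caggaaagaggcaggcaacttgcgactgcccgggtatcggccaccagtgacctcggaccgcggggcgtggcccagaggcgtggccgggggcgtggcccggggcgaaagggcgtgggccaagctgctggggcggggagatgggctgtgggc

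Mesenchymal cells had 18 members called higher and none lower, where 9.47% of all genes were called higher and 2.33% lower. In both directions together, endothelial and epithelial cells had more called members, 21 in each. Epha3, an ephrin A receptor (ENSMUSG00000052504, chr16:63543534-63864175, minus strand), measured 176 and 62.9 CPM in the mesenchymal pools and between 0 and 0.353 CPM in the other 6 (log2 fold change 10.04 ± 1.22, edgeR's quasi-likelihood test, adjusted p = 0.00167). Thinned to equal counts, Epha3 was detected in 36.0% of mesenchymal cells and in at most 1.18% of cells of another class's pool (49.3% and at most 6.67% without thinning). Sema6c (chr3:95160457-95174024, plus strand), a transmembrane semaphorin, measured 28.3 and 6.84 CPM in mesenchymal cells. No count fell on Sema6c in either endothelial pool. The mesenchymal level was 1984-fold above a floor of 3 counts over the endothelial class (0.0106 CPM). This is a ratio of reads without molecular identifiers, and all 7047 counts lay in 152 cells, so it sets no bound on the fold in RNA. Most of the counts behind this ratio came from the male mesenchymal pool (6192 of 6971). The female endothelial floor alone was 0.0271 CPM. Thinned to equal counts, Sema6c was detected in 7.87% of mesenchymal cells and in 0 of 1101 endothelial cells. Slit3, a secreted Robo ligand (ENSMUSG00000056427, chr11:35121224-35708507, plus strand), measured 112 and 63.1 CPM in mesenchymal cells and at most 1.69 elsewhere, a value of the male immune pool that was 0.0449 without i9c (log2 fold change 7.97, adjusted p = 0.00282).

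Receptors of Slits and netrins were among the mesenchymal calls. Robo2 (chr16:73891839-74411825, minus strand) measured 60.2 and 36.3 CPM in mesenchymal cells and at most 2.25 elsewhere (log2 fold change 6.24, edgeR's quasi-likelihood test, adjusted p = 0.000917). Netrin 1, Ntn1 (chr11:68209364-68400823, minus strand), measured 115 and 98.4 CPM, with 36.4 and 45.4 in endothelial cells and at most 5.80 elsewhere (log2 fold change 4.30, adjusted p = 0.0114). Its receptor Unc5b (chr10:60762593-60831581, minus strand) measured 71.0 and 38.5 CPM against at most 12.5 elsewhere (log2 fold change 3.41, adjusted p = 0.0308). Slit2, the second Slit, was called with 15.4 and 31.3 CPM although the female endothelial pool reached 24.2, and the male 7.45 (log2 fold change 2.86, adjusted p = 0.0440).

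The other mesenchymal calls included Eph receptors and semaphorins. Ephb3 measured 59.2 and 56.9 CPM with at most 6.96 elsewhere (log2 fold change 5.44), and Epha7 measured 50.1 and 45.4 CPM, with 25.5 and 53.6 in epithelial cells (log2 fold change 4.50 in mesenchymal and 3.97 in epithelial cells). Sema5a stood at 105 and 70.3 CPM in mesenchymal and 54.8 and 134 in epithelial cells but at most 6.36 in the endothelial and immune pools (log2 fold changes 4.49 and 4.43). Sema5b measured 14.1 and 36.1 CPM against at most 1.97 elsewhere (log2 fold change 5.42). Sema3b measured 33.7 and 74.3 CPM in mesenchymal and 62.5 and 139 in epithelial cells, against at most 2.94 elsewhere (log2 fold changes 4.67 and 5.76).

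Epithelial excess came largely from the cholangiocyte cluster p2. Efna4 (ENSMUSG00000028040, chr3:89333390-89338028, minus strand), an ephrin for EphA receptors, measured 20.7 and 69.1 CPM in the epithelial pools and at most 2.77 elsewhere (log2 fold change 8.02, edgeR's quasi-likelihood test, adjusted p = 0.000639); within the class it was 33.8 and 70.8 CPM in p2 and at most 0.0759 in the hepatocyte clusters. Plxnb1 likewise was 113 and 406 CPM in p2, 26.5 in the hepatocyte cluster p4 and at most 0.323 in p1 and p3. In p2 Sema3b measured 102 and 143 CPM, Sema3c 110.5 and 86.4, Sema5a 89.3 and 137, Ephb6 65.5 and 105 and Epha7 41.7 and 55.0, none of which exceeded 2.15 CPM in a hepatocyte cluster. Sema4a and Sema4g went differently. Sema4a, which binds plexins of the B and D classes, stood at 159 and 153 CPM in the male hepatocyte clusters p4 and p5 and at 65.0 and 40.4 in p2, and Sema4g at 37.7 CPM in the male hepatocyte cluster p3 and at 5.32 and 59.3 in p2. Log2 fold changes of the class were 4.73 for Sema3c, 3.62 for Ephb6, 3.23 for Sema4a and 5.26 for Sema4g. Hepatocyte clusters had no female sum of at least 5 cells, so they were not tested.

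Lower epithelial calls were Epha4, Plxna4, Unc5a, Robo2, Sema3d, Sema6d, Sema4c, Plxnc1, Ephb2, Plxna2 and Sema6b, with log2 fold changes between -7.42 for Epha4 and -2.66 for Sema6b. Ephb2, a receptor of B ephrins, was called higher in mesenchymal cells (18.5 and 8.57 CPM) with up to 11 CPM in immune cells.

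In immune cells 14 of the 62 members tested were lower and 2 higher. The lower calls ran from Sema3b (log2 fold change -8.15) and Sema5a (-7.75) through Robo1 (-6.01), Slit2 (-5.39), Plxnb1 (-5.00), Efna4 (-4.86), Efna1 (-4.80), Efnb2 (-4.79), Sema3d (-4.41), Sema3f (-4.14), Sema6a (-3.86) and Ephb4 (-3.61) to Efnb1 (-2.93) and Plxna2 (-2.10). Without i9c, a choice made after seeing the data, 17 members were lower and 2 higher, while lower calls over all genes went from 1263 to 1418. Both members called higher had low levels. Plxnb3 measured 4.38 and 13.3 CPM in immune cells and at most 2.32 elsewhere, and Sema4f 2.09 and 0.128 CPM in immune cells and at most 0.156 elsewhere, so that its female immune pool lay within the range of the others. With sex as a block Sema4f was no longer called, which left 1 higher call. Abundant members in immune cells were not called: Sema6d measured 126 and 252 CPM, with 195 and 181 in endothelial cells and 199 and 35.9 in mesenchymal cells.

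Sema4d, a ligand of Plxnb1 and Plxnb2, differed between the immune pools, with 186 CPM in the male and 2.64 in the female. It lay in the monocyte cluster i2 at 417 CPM in the male pool (63 cells) and 421 in the female (2 cells) and in the B-cell cluster i5 at 227 CPM (58 cells, all male), and at most 1.67 CPM in the Kupffer cell clusters i1, i3, i6 and i7. The male and female immune pools thus differ in which clusters they hold. Its receptor Plxnb2 measured 946 and 1141 CPM in the Kupffer cell cluster i6, 197 and 9.09 in i2 and 6.76 in i5.

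**Figure D3:**
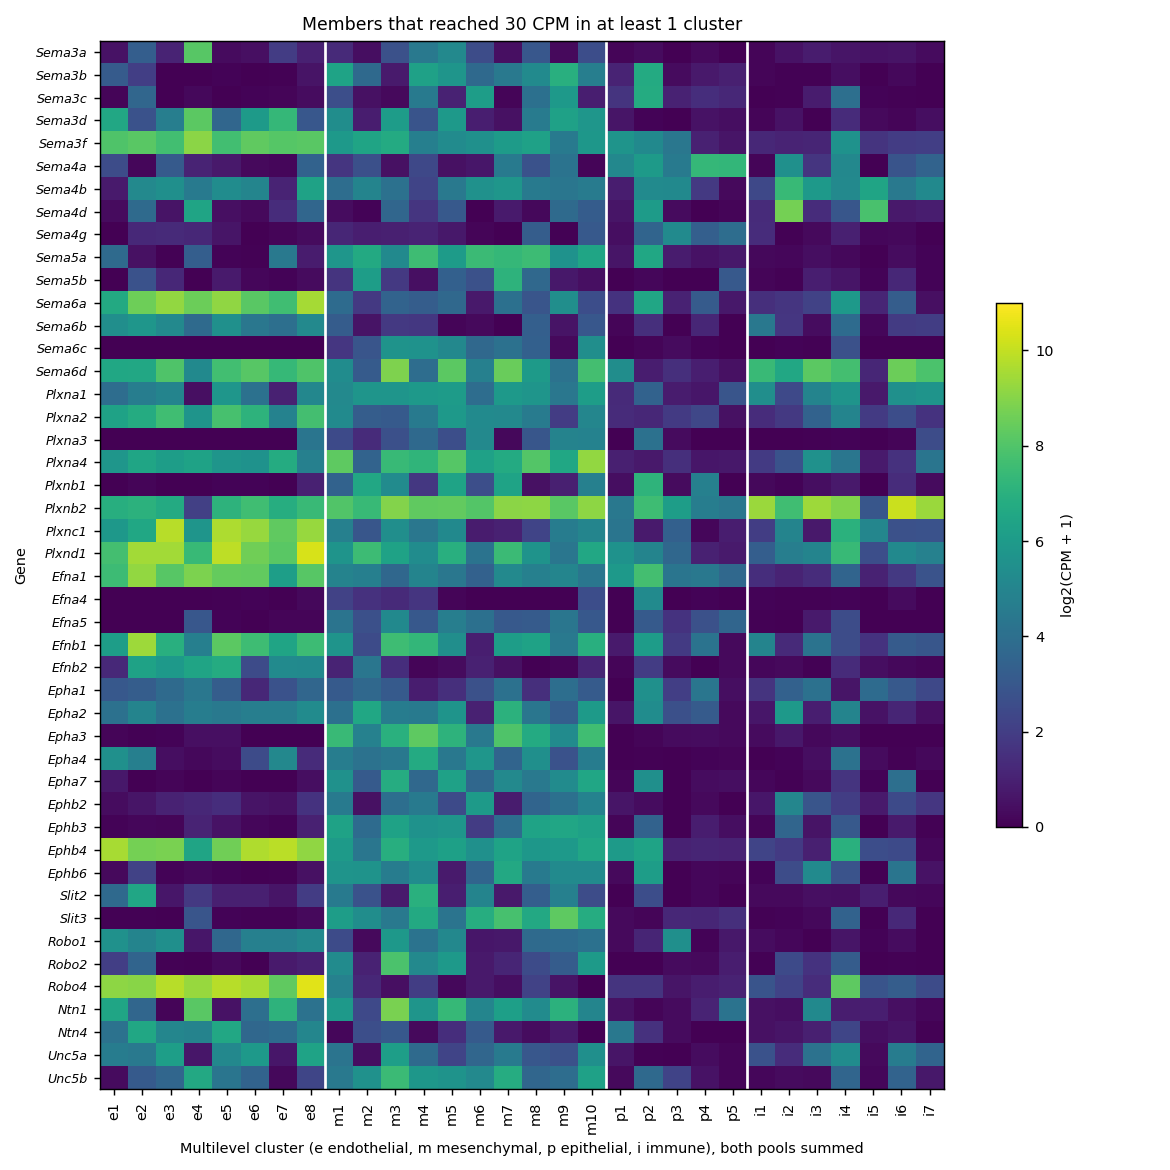
Heat map of log2(CPM + 1), both pools summed, of the 46 axon guidance genes that reached 30 CPM in at least 1 of the 30 clusters (e endothelial, m mesenchymal, p epithelial, i immune). Robo4, Plxnc1, Plxnd1, Ephb4 and Sema6a are bright across e1 to e8, Epha3 and Slit3 across m1 to m10, and cluster i4, which holds cells of i9c, is brighter than other immune clusters for Robo4 and Ephb4.

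The endothelial clusters were then compared on 16 sums of a cluster and a pool. Names are those of the deposited annotation: e2 portal vein with 14 cells of the peribiliary vasculature (PBV), e1 and e7 central vein, e3, e5 and e8 sinusoid, e6 last sinusoid and e4 lymphatic (22 cells). The authors made the clusters on the same cells, so part of any difference between clusters is built in. In the portal vein cluster e2, 7 of 48 members tested were called higher than in the other endothelial clusters and none lower, where 1.93% of 18321 genes were called, 1.85% higher and 0.0819% lower; the members' median log2 fold change was 0.73 (0.18 over all genes). With sex as a block only Slit2 and Efnb1 remained called, while calls over all genes went from 354 to 211.

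Slit2, a secreted Robo ligand (ENSMUSG00000031558, chr5:47983138-48307733, plus strand), measured 72.8 and 102 CPM in the male and female sums of e2. In the other 7 clusters it was at most 3.69 CPM except for 27.3 in the female sum of e1. Both sums of e2 lay above all others (log2 fold change 5.92 ± 0.95, edgeR's quasi-likelihood test, adjusted p = 0.00330). Efnb1 measured 749.8 and 607 CPM in e2 and at most 399 in any other cluster (log2 fold change 2.62 ± 0.58, adjusted p = 0.0292). Efna1, which was not called, stood at 681 and 514 CPM in e2, but the 2 sums of e4 were 14.3 and 649.

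Another 5 members called in e2 rested on 1 pool and on few cells each: among all endothelial cells, only 1 held at least 20 counts of Sema3g, 1 of Sema3c, 1 of Sema5b, 2 of Ephb1 and 3 of Sema7a. Sema3g, a class 3 semaphorin known from arteries, was listed in only 10 of the 3491 cells of the whole table, and its sum was 9.86 CPM in the male e2 and 0 in the female (log2 fold change 8.67, edgeR's quasi-likelihood test, adjusted p = 0.0367). Sema3c measured 25.1 CPM in the male and 0 in the female sum (7.55). Ephb1 measured 0.124 and 48.0 CPM (6.68), Sema7a 0 and 23.4 (7.57), and Sema5b 0.248 and 10.5 (5.46). All 5 calls were lost with sex as a block.

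In the central vein cluster e1, 3 of 48 members were called, 2 higher and 1 lower, where 1.41% of all genes were, 1.32% higher and 0.0873% lower (median log2 fold change -0.39, and 0.20 over all genes). Sema6a was lower, at 99.0 and 102 CPM in e1 against 155 to 748 in the sums of the other clusters, with no overlap (log2 fold change -1.99 ± 0.38, edgeR's quasi-likelihood test, adjusted p = 0.0133). Epha4 was higher, at 51.6 and 36.5 CPM, but the female sums of e2 and e7 reached 39.3 and 57.6 (4.54, adjusted p = 0.0494). Sema3b was called with 13.9 CPM in the male sum of e1, all of it from 1 cell, and 0 in the female sum (6.37, adjusted p = 0.0435). Only Sema6a remained called with sex as a block, while calls over all genes went from 258 to 208.

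Sinusoidal clusters (e3, e5, e6, e7 and e8, among which e7 is annotated as central vein) were compared with e1, e2 and e4. Of 48 members, 4 were higher and 3 lower, where 1.92% of all genes were called, 0.759% higher and 1.16% lower (median log2 fold change -0.22, and 0.11 over all genes). Plxnc1 showed the largest excess. It measured 902 and 1041 CPM in e3, 826 and 698 in e5, 707 and 588 in e8, 466 and 713 in e6 and 279.9 and 339.9 in e7, against 95.3 and 89.5 in the portal e2, 72.8 and 36.2 in the central e1 and 155 and 6.70 in the lymphatic e4. The groups did not overlap (log2 fold change 3.06 ± 0.49, edgeR's quasi-likelihood test, adjusted p = 0.00303). Its ligand Sema7a had no such counterpart, with at most 24 CPM in any endothelial sum.

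Plxnd1, Ephb4 and Sema6d were the other members higher in the sinusoidal clusters. Plxnd1 was highest in e8 at 1597 and 1165 CPM, but e2 with 767 and 673 lay above e6 and e7 (log2 fold change 1.11, adjusted p = 0.0153). Ephb4 ranged from 376 to 1079.8 CPM in sinusoidal sums, while e1 measured 607 and 951 and e4 33.1 and 107 (1.09, adjusted p = 0.0379), so that the groups overlapped. Sema6d ranged from 154 to 322 CPM in sinusoidal sums and from 34.6 to 103 in the others, without overlap (1.79 ± 0.31, adjusted p = 0.00540). All values are from edgeR's quasi-likelihood test.

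Of the members lower in the sinusoidal clusters, Ntn1 was at most 24.9 CPM in e3, e5, e6 and e8, but 239 and 66.9 in e7, 88.4 and 87.7 in e1, 373 and 254 in e4 and 18.8 and 5.15 in e2 (log2 fold change -3.83, edgeR's quasi-likelihood test, adjusted p = 0.0137). Slit2 and Ephb1 were the other two (-4.19 and -5.40). The Ephb1 difference was -1.10 within the male pool and -4.05 within the female. When e7 was taken as central vein with e1, an alternative chosen after seeing the data, 5 of these 7 calls remained, where 498 of 18321 genes were called in all, and the central vein group had 6 called members, Ntn1 among them, where 273 genes were higher and 40 lower.

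**Figure D4:**
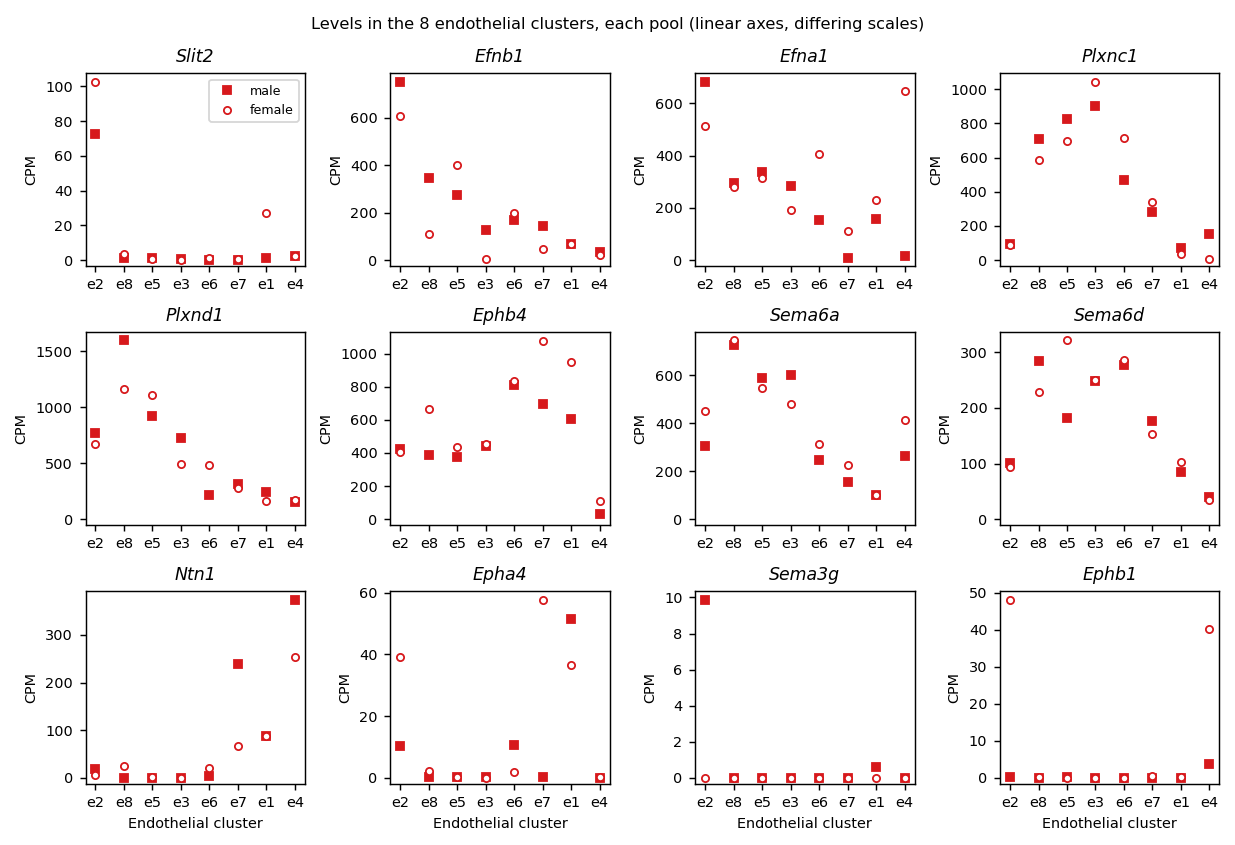
CPM (linear axes that differ in scale) of 12 axon guidance genes in the 8 endothelial clusters, with male sums as squares and female sums as open circles. Slit2 and Efnb1 peak in e2 in both pools, and Plxnc1 and Sema6d in the sinusoidal clusters. In e2, Sema3g is high in the male pool only and Ephb1 in the female pool only, while e4 also holds Ephb1 (28.9 CPM over both pools).

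Cells of the peribiliary vasculature (e5c, 14 cells) lay within e2 and were not tested on their own. Slit2 was 0.69 CPM in e5c and 101 in the rest of e2 (e2c). The 2 sums of e5c disagreed for most members: Robo2 was 245.5 CPM in the 5 male cells and 0 in the 9 female cells, and Sema4c 0 and 279. Lymphatic e4 showed single-pool peaks too, with Sema3a at 0.624 and 412 CPM and Sema3d at 63.6 and 409.8.

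Mesenchymal clusters were compared on 21 sums. Hepatic stellate cells were set against mural cells and fibroblasts, and 3 of 56 members were called, all higher, where 1.73% of 21500 genes were called, 1.25% higher and 0.484% lower (median log2 fold change 0.48, and -0.04 over all genes). Robo2 measured 243 and 269 CPM in the capsular stellate cluster m3c and 219 in the male stellate cluster m7c, against at most 76.3 in m5c and 67.8 in the fibroblast clusters (log2 fold change 4.46 ± 0.66, edgeR's quasi-likelihood test, adjusted p = 0.000802). Ntn1 measured 454 and 539.9 CPM in m3c and 406 in m7c, against at most 216 in the fibroblast clusters and 180.0 in the mural ones (3.08 ± 0.47, adjusted p = 0.00105). Sema6d measured 387, 196 and 727 CPM in the same order, within reach of the venous smooth muscle cluster m9c with 464.5 in the male sum (2.73 ± 0.56, adjusted p = 0.0118). The female sum of m7c had only 4 cells and was left out. With sex as a block 5 members were called, the other two being Sema3b and Sema5a, both lower in stellate cells, where 256 of all genes were called higher and 104 lower. Unc5b, the netrin receptor, stood beside its ligand in m3c at 212 and 150 CPM but was not called.

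Mural cells (the smooth muscle clusters and m5c, which the annotation calls SLC) differed from fibroblasts in 8 of 56 members, 1 higher and 7 lower, where 3.0% of all genes were called, 0.702% higher and 2.29% lower (median log2 fold change -0.83, and -0.16 over all genes). Plxnb1 was the higher one (3.97 ± 0.73, edgeR's quasi-likelihood test, adjusted p = 0.00260). It measured 49.7 and 125 CPM in the arterial smooth muscle cluster m2c, 70.3 and 105 in m8c, 169 and 135 in m9c and 62.4 and 44.6 in m5c, but 0 and 6.27 in m15c, and between 0.389 and 26.3 in the fibroblast clusters. The lower calls were the ligands Slit2 (-3.24), Sema3c (-3.54), Sema3d (-2.84), Sema6b (-4.93) and Efnb1 (-2.76), together with the receptors Robo2 (-2.32) and Ephb3 (-2.51). The Sema3d difference was -3.15 within the male pool and -0.74 within the female. Of the 8 calls, 6 remained with sex as a block and 3 with sums of at least 10 cells, Plxnb1 in both. Sema3d, for example, ranged from 0 to 102 CPM in fibroblast sums and was at most 1.38 in the smooth muscle clusters m2, m6 and m7, but reached 38.3 and 124 CPM in m5c. By a gene signature, the paper found m5c more like fibroblasts than mural cells. With m5c left out, an alternative chosen after seeing the data, 7 of the 8 calls remained. In that fit 9 of 55 members were called, 2 higher and 7 lower, where 773 of 21217 genes were, 221 higher and 552 lower.

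Peribiliary fibroblasts (m4) had the highest summed Slit2 and Epha3 of the 30 clusters. Slit2 measured 99.0 and 339.9 CPM there against at most 45.5 in the other mesenchymal clusters, and Epha3 308 and 278. Against the other fibroblasts no member was called by edgeR's quasi-likelihood test (0.0558% of all genes were, 0.0186% higher and 0.0372% lower; median of the members -0.18, and -0.06 over all genes), 2 of 56 had an unadjusted p below 0.05 (1234 of all 21500 genes did), and DESeq2 called 2, Slit2 as higher and Sema3d as lower (97 genes higher and 156 lower in all). Slit2 was 3.96 ± 1.11 higher on the log2 scale (adjusted p = 0.402). Slit3 had another placement, with 402 and 165 CPM in the Wt1-positive fibroblasts m9, 457 and 29.2 in m6 and 247 and 119 in the venous smooth muscle cluster m7. Plxna4 was highest in the male portal fibroblast cluster m10 at 602 CPM.

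Ligands and their receptors were set side by side by the cluster in which each was highest, over the sums of both pools. Slit3 was highest in m9 (312 CPM) and Slit2 in m4 (127), and their receptors Robo1 (56.6) and Robo2 (234) in the stellate-containing m3. In the male pool alone Slit3 was higher in m6 (457 CPM, 9 cells) than in m9 (402). Ntn1 and Unc5b were both highest in m3, at 439.5 and 179 CPM. Efnb2 was highest in e5 (109 CPM), and its receptor Ephb4 in e7 (918). Efnb1 was highest in e2 (673 CPM), and its receptor Ephb3 in m9 (90.1). Efna1 was highest in e2 (590.5 CPM), and its receptor Epha3 in m4 (304). In the female pool alone Efna1 was higher in e4 (649 CPM, 13 cells) than in e2 (514). Sema4a was highest in the hepatocyte cluster p4 (159 CPM), Sema4d in i2 (417), their receptor Plxnb1 in p2 (142) and Plxnb2 in i6 (1127). Sema7a was highest in e4 (16.6 CPM), and Plxnc1 in e3 (905). These are RNA levels of sorted cells, and contact between the cells was not measured.

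**Figure D5:**
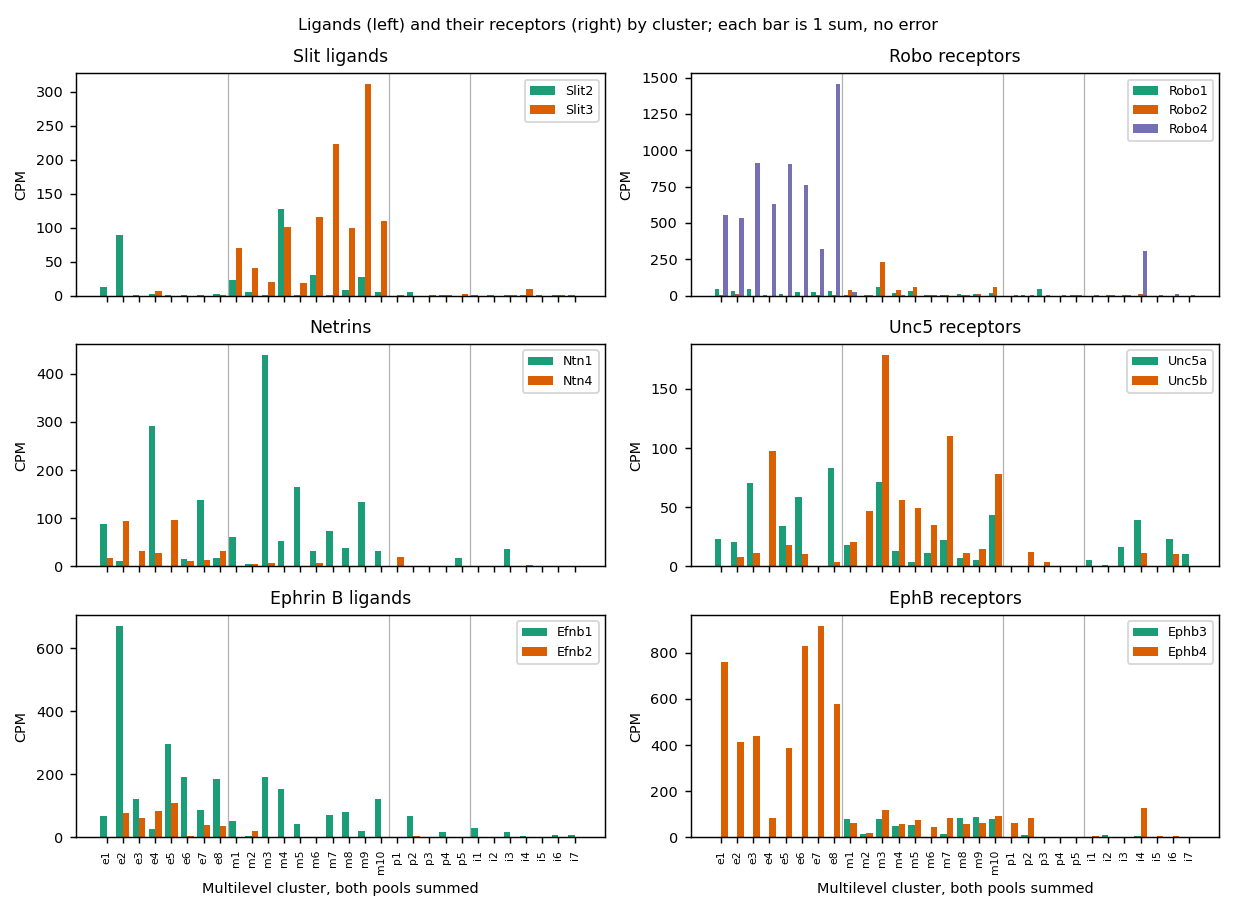
CPM of Slit, netrin and ephrin B ligands (left) and of Robo, Unc5 and EphB receptors (right) in the 30 clusters, both pools summed, with each bar 1 sum and no error. Slit bars stand mainly in m clusters and e2 and Robo4 bars in e clusters, while Ntn1 and Unc5b share their highest cluster, m3. Robo4 is drawn with its family but was not paired with a Slit.

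Co-receptors followed part of these patterns. Nrp1 measured 1523 and 1159 CPM in endothelial cells, 378 and 298 in mesenchymal, 143 and 192 in immune and 35.2 and 20.6 in epithelial cells (log2 fold change in endothelial cells 3.43, edgeR's quasi-likelihood test, adjusted p = 0.00141). Nrp2 measured 309 and 284 CPM in endothelial cells and at most 30.5 elsewhere (4.49, adjusted p = 0.00124). Neo1, the netrin receptor neogenin, was higher in mesenchymal (94.9 and 85.1 CPM) and epithelial cells (31.2 and 148), with log2 fold changes of 3.38 and 3.16, and lower in immune cells (-5.83), while Dcc reached at most 0.474 CPM. Of 51 other axon guidance pathway genes tested, co-receptors included, 10 were called higher and 3 lower in endothelial cells (5.33% and 2.96% of all genes were). The counts were 8 and 1 in mesenchymal cells (9.47% and 2.33% of all genes), 8 and 6 in epithelial cells (8.37% and 4.05%) and 6 and 8 in immune cells (7.92% and 5.25%). DESeq2 called more of these genes, 26 in endothelial, 18 in mesenchymal, 24 in epithelial and 23 in immune cells. It also called more of all genes (4534, 4321, 5601 and 5669 of 24046).

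Female and male pools were compared across the 4 classes. None of 62 members was called by edgeR's quasi-likelihood test (0.0208% of all genes were, 0.00832% higher and 0.0125% lower), 6 had an unadjusted p below 0.05 (1905 of all 24046 genes did), and DESeq2 called 3 (583 of all genes). The members' median log2 difference, female against male, was 0.22 (-0.11 over all genes). The genes called by DESeq2 were Epha3, Slit3 and Plxnb1. Epha3 and Slit3 were each lower in the female mesenchymal pool, all of whose cells came from 1 plate, and Plxnb1 was higher in the female pool of every class. The mix of clusters also differed between the pools.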

How the data were processed

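The deposited file holds raw read counts per gene and cell, made by the authors from single 50-base Smart-seq2 reads without strand or molecular identifiers; the submitters' processing notes name bcl2fastq, Bowtie2, featureCounts of Subread, Seurat and GRCm38/mm10, with versions not given in the sources used here. Classes, clusters and annotation are the authors'. Counts were summed per class or cluster and pool (at least 5 cells), without the 92 ERCC spike-ins, and tested with edgeR 4.0.16 (R 4.3.3; TMM, filterByExpr, glmQLFTest, no covariate; female against male with class as a term) over all genes. Each class was set against the mean log2 level of the other 3. Genes were called at a Benjamini-Hochberg adjusted p below 0.05 and at least 2-fold. DESeq2 1.42.0, no filter, sums per plate, other cell minimums, each pool left out and sex as a block were tried. On simulated class sums, 15 of 100 genes changed 4-fold, 70 of 100 changed 32-fold and 8 of 23261 unchanged genes passed.

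Cluster sums of one class and sex share their GEO sample, and class sums of one sex share only the sex. Same-sex deviations correlated at 0.0971 to 0.163 over class pairs, -0.0329 to 0.104 over endothelial and 0.0206 to 0.217 over mesenchymal cluster pairs. The genes, lists and comparisons were chosen with earlier results of these data known. Named with values were the called members, or in each direction the 12 with the largest change where more were called, the highest member of each subfamily in each class, Sema3g, Plxnc1 and Slit2, partners of these, and the co-receptors; a few other values, such as those of e5c, were chosen after they were seen. Exon lengths and coordinates are from GENCODE vM21. PCR reads are not independent molecules, so intervals and floors cover counting error only.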

Additional observations from a re-analysis of the deposited data

Results flagged for a closer look

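For 3 members within the endothelial class, the difference between a cluster and the others was positive in 1 pool and slightly below 0 in the other, where the cluster's sum was at or near 0 CPM, so the second value has no clear direction. The difference between the pools was not tested, and Sema3b in e1 came from 1 cell. Values are differences in mean log2 CPM between a cluster and the other endothelial clusters. Sema3b in the central vein cluster e1 differed by 4.16 in the male pool and by -0.30 in the female pool. Ephb1 in the portal vein cluster e2 differed by -0.25 in the male and by 5.34 in the female pool. Sema3c in e2 differed by 5.28 in the male and by -0.16 in the female pool.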

How the results depend on the processing

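Of 1263 values of called members under the alternatives, 1062 stayed the same, 180 kept their direction but were no longer called, 18 moved and 3 changed sign. In refits, same meant called in the same direction. Cluster comparisons with 1 pool left out were not refitted. There the difference of mean log2 CPM within the other pool was used, and same meant within 1 SD of the pool values from the main value. The 3 sign changes were such differences within 1 endothelial pool, each near 0 and set by a cluster sum at or near 0 CPM. Without the male pool, Sema3b in e1 became -0.30 and Sema3c in e2 -0.16 (4.16 and 5.28 without the female pool). Ephb1 in e2 became -0.25 without the female pool (5.34 without the male). DESeq2 called 34 members in endothelial cells, 32 in immune cells, 16 in mural cells, 12 in stellate cells (6 higher and 6 lower), 11 in sinusoidal clusters, 6 in e1 (1 higher and 5 lower), 3 by sex and 2 in m4, each more than edgeR, but 3 in e2, where edgeR called 7. Its calls over all genes rose as well, from 1992 to 4534 in endothelial, 3167 to 5669 in immune and 644 to 1507 in mural cells, from 373 to 919 in stellate cells, 352 to 1479 in sinusoidal clusters, 258 to 353 in e1 (of these 242 and 188 higher), 354 to 391 in e2, 5 to 583 by sex and 12 to 253 in m4. Without a filter on low counts the calls were 38 in endothelial, 30 in immune and 28 in mesenchymal cells, 13 in mural cells, 10 in stellate cells, 12 in e2 and 8 in e1. Over all genes they were 4210 in endothelial, 5507 in immune and 4761 in mesenchymal cells, 970 in mural cells, 739 in stellate cells, 1102 in e2 and 998 in e1. With the replicate block by sex, 1 was called in e1, 2 in e2 and 5 in stellate cells, where 208, 211 and 360 of all genes were. No other count of called members, both directions together, moved by over 1.5 times. By direction, higher calls in immune cells went from 2 to 1. In m4, calls over all genes went from 12 to 20, and members with an unadjusted p below 0.05 from 2 to 6. Sums per plate gave 26 calls in immune cells, where 4006 of 17536 genes were called. Sums of at least 10 cells gave 6 in stellate cells, where 425 of 21544 genes were. Alternatives chosen after seeing the data gave 6 calls in e1 with e7 as central vein (5 higher and 1 lower), where 313 of 18321 genes were called. Sums of at least 3 cells, also chosen in this way, gave 5 in mural and 11 in stellate cells, where 573 and 508 of 21637 genes were. Leaving out 1 pool gave 12 to 24 calls in endothelial, 9 to 23 in epithelial, 7 to 18 in immune and 13 to 18 in mesenchymal cells: endothelial calls fell to 13 without the male and 12 without the female endothelial pool, epithelial calls to 9 and 13 without the male and female epithelial pool, and immune calls to 7 without the male immune pool. With 1 pool left out, calls over all genes were also fewer in every such fit of each class, so the lower counts are not particular to the members. The causes were not tested. With 2 pools per class, changes under 4-fold are mostly beyond detection, and intervals cover counting error only.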
